A study of Aspergillus nidulans with 4 samples.

Results

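Heterotrimeric G proteins carry signals from receptors at the cell surface to enzymes inside the cell. A receptor makes the alpha subunit exchange GDP for GTP, alpha then parts from the beta-gamma pair, and regulators of G-protein signaling (RGS proteins) end the signal by speeding up GTP hydrolysis. Phosducin-like proteins help beta and gamma assemble, and one output of the pathway is cyclic AMP (cAMP), which frees the catalytic subunit of protein kinase A (PKA). In the mould Aspergillus nidulans, active FadA alpha subunit favours hyphal growth over asexual sporulation, and a second alpha subunit, GanB, acts with RgsA and PKA in carbon sensing and spore germination.

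The genes described here were 7 identifiers chosen by name, out of 10930 rows in the deposited table. They were fadA (AN0651), sfaD (AN0081), gpgA (AN2742), AN1090, rgsA (AN5755), phnA (AN0082) and pkaA (AN6305). For 6 of the 7, the annotation text of the files names a matching role. The exception was AN1090, which had been listed as ganB but whose text names only orthologs in other Aspergillus species. The files give the GanB alpha subunit to another identifier, AN1016, and RefSeq (assembly ASM1142v1) lists AN1016 as gpaB. AN1090 was therefore counted among the 7 with no role, and AN1016 was described beside it, a choice made after the text and values had been seen. RefSeq gives AN0651 the symbol gpaA and AN6305 the symbol pkaC.

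The strain without mpkA (genotype -mpkA, strain AN1404) was set against the strain it was derived from (parental strain, AN1405), with 2 RNA libraries each. The gene mpkA encodes the kinase at the end of the cell wall integrity cascade. The submitters looked for unknown functions of the kinase in unstressed cultures. Both strains were grown in yeast extract and glucose medium at pH 3.3 and 28 °C, for about 20 hours after a 12 hour seed culture, and mycelium was taken in late exponential phase. The labels do not say how mpkA was removed, which other alleles the strains carry, or which libraries are biological and which technical replicates. Apart from a fit with an assumed spread, all p-values therefore reflect library-to-library spread, part of which may be technical.

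Values are normalized reads, that is, reads per gene divided by a size factor for each library. The deposited means were resolved into whole reads for each library, called a and b. The libraries held 31609185 to 34871842 reads on genes. The deleted gene had 6 and 3 reads in the deletion libraries, against 6993 and 6437 in the parental libraries. Of 8 marker genes of asexual spores, conidiophores and Hülle cells, 5 were called lower, 1 higher and 2 neither in the authors' deposited table. That table called 35.9% of all genes tested lower and 36.3% higher, at a q-value under 0.05. The summed level of the 8 markers was 864 and 818 normalized reads in the deletion libraries, against 1905 and 1787 in the parental libraries. Of this sum, abaA held 127 and 125 in the deletion libraries, against 1153 and 1120 in the parental libraries. The marker called higher was yA, with 429 and 408 in the deletion libraries against 104 and 93.2 in the parental libraries. The gap in the sum is thus mainly that of abaA and does not stand for each marker. No marker had 0 reads in either strain, and the lowest, dewA, had 8.90 and 5.59 normalized reads in the deletion libraries against 9.58 and 4.61 in the parental libraries. The part of spore-forming cells in the results below was not tested, and in bulk mycelium fewer cells of a type cannot be told apart from less RNA per cell.

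Of the 7 genes, rgsA and phnA moved by more than 1.5-fold, in opposite directions. The RGS gene rgsA fell 2.12-fold, and the phosducin-like gene phnA rose 1.69-fold. The subunit genes fadA, sfaD and gpgA and the kinase gene pkaA were called higher by 1.14-fold to 1.23-fold, and AN1090 was called lower by 1.22-fold. With reads scaled to library totals, fadA turned to the other side of 0 and neither fadA nor pkaA was called. All 7 genes passed a q-value of 0.05 in the authors' deposited table, 5 higher and 2 lower, where 72.2% of all 10505 genes tested also passed, so the count of calls does not set these genes apart. Of all genes tested, 36.3% were called higher and 35.9% lower. Changes of at least 2-fold were made by 1 of the 7 and by 27.2% of all genes, and changes of at least 1.5-fold by 2 of the 7 and by 44.0% of all genes. The median absolute log2 change was 0.30 over the 7 and 0.66 over all genes tested, and the median signed log2 change was 0.29 over the 7 and -0.02 over all.

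**Figure D1:**
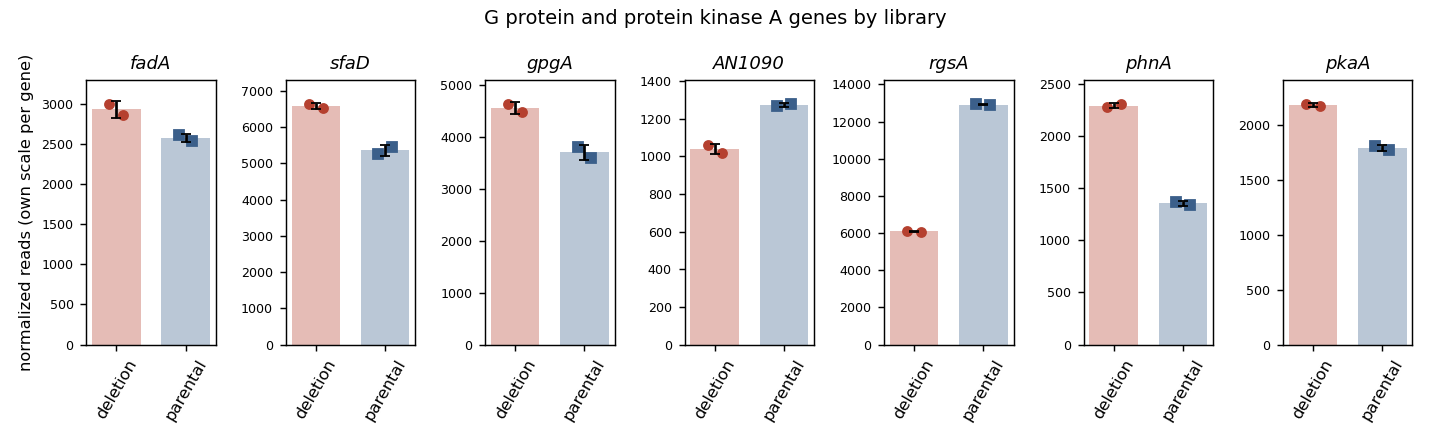
Normalized reads of each of the 7 genes in both libraries of the deletion strain (circles) and of the parental strain (squares), with each gene on its own axis from 0. Bars are means and error bars the SD of 2 libraries. The strains do not overlap in any of the 7 genes, nor in 87.7% of all genes tested. On these axes the gap is widest for rgsA and phnA.

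The gene for the alpha subunit, fadA, had 2998 and 2856 normalized reads in the deletion libraries, against 2604 and 2534 in the parental libraries. The strains did not overlap on this scale, but the gap was small beside that of rgsA. The authors' deposited table listed fadA as 1.14-fold higher (q = 0.0004). From the recovered reads, edgeR's quasi-likelihood test put its log2 change at 0.17 with a standard error (SE) of 0.036 (adjusted p = 0.00033). That call depended on scaling. In CPM, reads scaled to a common library total, fadA had 85.1 and 80.8 in the deletion libraries against 85.8 and 83.2 in the parental libraries, so the strains overlapped and the edgeR log2 change became -0.027 (adjusted p = 0.502). Over all genes, the median log2 change in edgeR was -0.21 with library totals and -0.02 with TMM scaling, and fadA lay above that median in both. The fadA span in the files, 2883440 to 2885822 on the plus strand with no chromosome named, also overlaps AN0650 on the minus strand over 496 bases, 20.8% of the span. The library kit does not mark strand, so reads there cannot be told apart between both genes. AN0650 itself had a mean of 5325 normalized reads in the deletion strain against 3299 in the parental strain.

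The beta subunit gene sfaD, whose product pairs with GpgA and FadA, had 6643 and 6520 normalized reads in the deletion libraries, against 5256 and 5463 in the parental libraries. The gamma subunit gene gpgA had 4637 and 4476 in the deletion libraries against 3804 and 3596 in the parental libraries. Both deletion libraries lay above both parental libraries for either gene. The authors' deposited table gave a 1.23-fold rise for sfaD (q = 9.33e-13) and a 1.23-fold rise for gpgA (q = 2.33e-10). In edgeR the log2 change was 0.28 (SE 0.031) for sfaD and 0.28 (SE 0.035) for gpgA. Under library totals these shrank to 0.082 for sfaD (edgeR adjusted p = 0.0226) and 0.086 for gpgA (edgeR adjusted p = 0.0361). Expressed as CPM, the deletion libraries still lay above the parental ones, with 189 and 184 against 173 and 179 for sfaD.

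The identifier annotated as the GanB alpha subunit, AN1016, was lower in the deletion strain. It had 1994 and 1988 normalized reads in the deletion libraries, against 2798 and 2651 in the parental libraries, with no overlap. The authors' deposited table listed it 1.37-fold lower (q = 1.23e-16), and the edgeR log2 change was -0.47 (SE 0.037). AN1090 had 1059 and 1020 normalized reads in the deletion libraries against 1267 and 1279 in the parental libraries. The authors' deposited table listed it 1.22-fold lower (q = 6.27e-05), with an edgeR log2 change of -0.31 (SE 0.046). Either gene was also lower under library totals, where AN1090 stood at -0.51.

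Of the 7 genes, the largest change was that of rgsA, an RGS gene annotated for stress response and conidiation. It had 6102 and 6078 normalized reads in the deletion libraries, against 12960 and 12884 in the parental libraries. Libraries of a strain lay close together while the strains differed 2.12-fold in the authors' deposited table (q = 1.30e-179). The edgeR log2 change was -1.10 (SE 0.027, adjusted p = 5.10e-16), and library totals deepened it to -1.30. A lower log2 change than that of rgsA was listed for 21.5% of all genes tested, so its size was not rare in this comparison. The rgsA span, 1798025 to 1800615 on the plus strand, overlaps AN5754 on the minus strand over 98 bases, 3.78% of the span. AN5754 was not called in the authors' deposited table (q = 0.198).

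**Figure D2:**
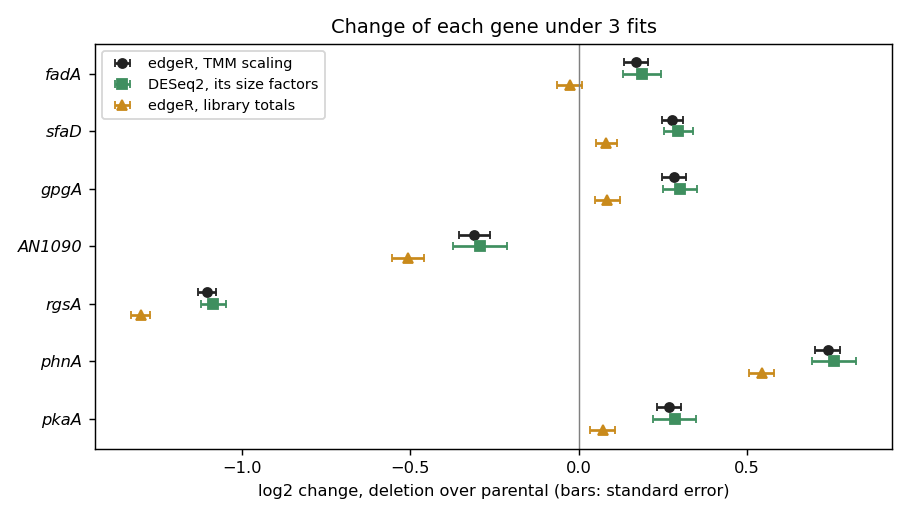
Log2 change of each of the 7 genes, deletion over parental strain, from edgeR with TMM scaling (circles), DESeq2 (squares) and edgeR with library totals (triangles). Bars are standard errors. With library totals all points move to the left, fadA to -0.027 on the other side of 0, while rgsA stays below -1 and phnA above 0.5.

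The phosducin-like gene phnA had 2275 and 2309 normalized reads in the deletion libraries, against 1372 and 1339 in the parental libraries. This was a 1.69-fold rise in the authors' deposited table (q = 7.64e-37). In edgeR its log2 change was 0.74 (SE 0.037, adjusted p = 9.15e-12), and 0.54 under library totals. phnA lies next to sfaD on the same strand in the files, with 380 bases between both spans (4667071 to 4668785 for phnA, 4669166 to 4671479 for sfaD). Relative to its neighbour, phnA gained in the deletion strain by 0.46 on the log2 scale.

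The PKA catalytic subunit gene pkaA had 2190 and 2167 normalized reads in the deletion libraries, against 1804 and 1770 in the parental libraries. It was 1.22-fold higher in the authors' deposited table (q = 1.10e-06), with an edgeR log2 change of 0.27 (SE 0.035). Under library totals the change was 0.071 and no longer called (edgeR adjusted p = 0.0753), although 62.2 and 61.3 CPM in the deletion libraries still lay above 59.4 and 58.1 in the parental libraries. The pkaA span overlaps AN6306 on the other strand over 110 bases, 4.18% of its length, and AN6306 had 7513 normalized reads in the deletion strain against 2792 in the parental strain. The strains did not overlap in 7 of 7 genes on the normalized scale, where 87.7% of all genes tested did not overlap either. In CPM this held for 6 of 7 genes and for 88.0% of all genes.

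A larger assumed spread between cultures left 2 of the 7 calls. With the coefficient of variation in edgeR set to 0.2, the genes called were rgsA (adjusted p = 0.000672) and phnA (adjusted p = 0.0286), in a setting that called 43.9% of all genes. edgeR with TMM scaling called all 7, where it called 86.5% of all genes tested, 42.5% higher and 44.0% lower. With library totals it called 3 higher and 2 lower, where it called 86.4% of all genes, 32.8% higher and 53.5% lower. With any 1 library left out, edgeR called all 7 in the direction of the authors' deposited table, at background shares of 83.6% without deletion library a, 83.6% without deletion library b, 81.6% without parental library a and 81.8% without parental library b. In each of these fits 1 strain had a lone library, assumed to vary like the other strain's 2, which alone gave the spread.

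The order of levels changed between the strains. Per kb of gene span, which includes introns and untranslated parts, gpgA ranked first in the deletion strain with 5267 ± 132 normalized reads per kb (SD, n = 2), followed by sfaD with 2844 ± 37.6 and rgsA with 2350 ± 6.35. In the parental strain rgsA ranked first with 4987 ± 20.5 normalized reads per kb, followed by gpgA with 4278 ± 170 and sfaD with 2316 ± 63.1. Lower in the order, phnA stood above fadA in the deletion strain, with 1337 ± 14.1 against 1228 ± 42.0 normalized reads per kb. In the parental strain phnA stood below fadA, with 790 ± 13.7 against 1078 ± 20.8. The last 2 places went to pkaA and AN1090 in both strains, and AN1090 had the lowest level, 454 ± 11.9 normalized reads per kb in the deletion strain and 556 ± 3.75 in the parental strain. No neighbours in either order had overlapping libraries, and the closest were phnA and fadA in the deletion strain, 1.09-fold apart. AN0650 overlaps 20.8% of the fadA span, and how reads there were counted is not stated. If such reads went uncounted, the fadA level per kb is too low. The order of phnA and fadA in the deletion strain is therefore not settled.

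**Figure D3:**
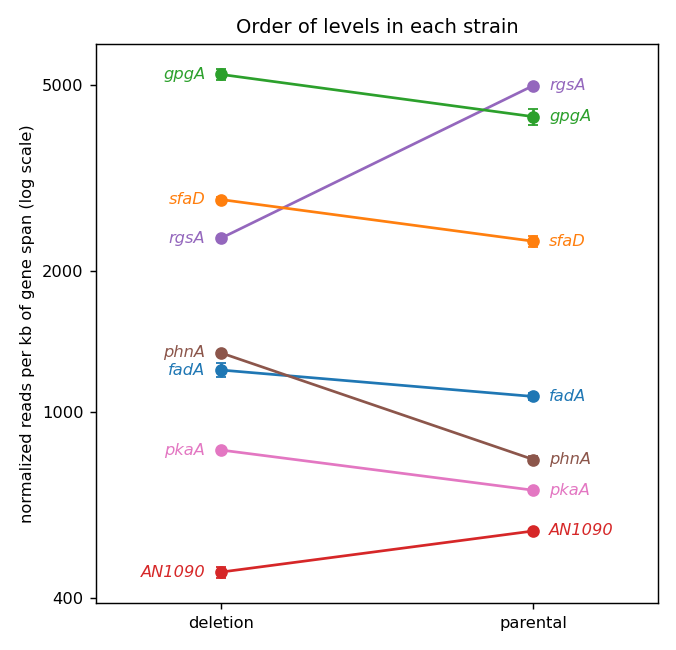
Mean normalized reads per kb of gene span (log axis) of the 7 genes in the deletion strain, left, and the parental strain, right, with the SD of 2 libraries. The line of rgsA crosses those of gpgA and sfaD, and the line of phnA crosses that of fadA. The level of fadA uses its whole span, 20.8% of which overlaps AN0650.

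Ratios between genes within a library do not depend on how libraries are scaled. For each read per kb of sfaD, the deletion libraries held 0.820 and 0.833 of rgsA, against 2.20 and 2.11 in the parental libraries, a 2.61-fold lower ratio. The rgsA to fadA ratio per kb was 1.87 and 1.96 in the deletion libraries against 4.58 and 4.68 in the parental libraries. Both pairs were added after the values had been seen. Relative to AN1016, the GanB gene, rgsA stood at 2.33 and 2.33 in the deletion libraries against 3.53 and 3.71 in the parental libraries, a 1.55-fold lower ratio although both genes fell.

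The balance between the alpha subunit genes AN1016 and fadA also differed. The AN1016 to fadA ratio per kb was 0.802 and 0.840 in the deletion libraries, below 1, against 1.30 and 1.26 in the parental libraries, above 1. These sides of 1 rest on the whole fadA span, 20.8% of which AN0650 overlaps. How reads there were counted is not stated, and AN0650 had 5325 normalized reads in the deletion strain against 3299 in the parental strain. The putative alpha subunit gene AN3090 went the other way relative to fadA. That ratio per kb was 0.635 and 0.644 in the deletion libraries against 0.503 and 0.506 in the parental libraries. It was not among the planned pairs. In contrast, gpgA per sfaD hardly moved, with a log2 difference of 0.0041 between the strains and libraries that overlapped (within-strain SD 0.069). The sfaD to fadA ratio differed by 0.11 on the log2 scale (within-strain SD 0.052) and pkaA to fadA by 0.098 (within-strain SD 0.028). Of 6 pairs, 2 of them with AN1016 taken for ganB, 5 did not overlap, and for these the exact two-sided permutation test gave p = 0.333, the smallest that 2 against 2 libraries allow. The share among pairs of other genes was not counted, so 5 of 6 does not set these pairs apart. Among single genes tested, 87.7% did not overlap in normalized reads.

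**Figure D4:**
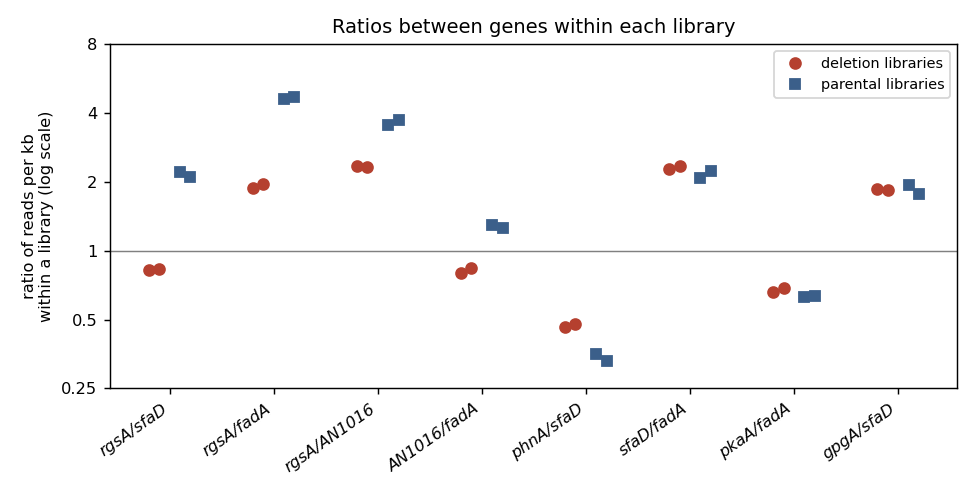
Ratio of reads per kb between 2 genes within each library (log axis) for 8 pairs, with deletion libraries as circles and parental libraries as squares. Ratios with rgsA on top are lower in the deletion strain, AN1016 to fadA falls on opposite sides of 1, and gpgA to sfaD overlaps. Ratios with fadA use its whole span, 20.8% of which overlaps AN0650.

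Other genes of the pathway were counted by role, from lists of identifiers and annotation phrases. Of 29 such genes, 11 were called higher, 10 lower and 8 neither in the authors' deposited table, with a median log2 change of -0.058. That table called 36.3% of all genes tested higher and 35.9% lower, the background for the counts by role below. With TMM scaling edgeR called 12 of the 29 lower, where it called 44.0% of all genes lower. With library totals it called 18 of the 29 lower, where it called 53.5% of all genes lower. Receptors, 15 of the 29, made up 2 of the 4 called genes that rose 2-fold or more and 4 of the 5 that fell as far. Over all 10505 genes tested, 958 were called higher and 1904 lower by 2-fold or more.

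Among 15 receptor genes, 7 were called lower, 3 higher and 5 neither, where 35.9% of all genes tested were called lower and 36.3% higher. AN8262, a secretin-like receptor annotated for nutrient sensing and sexual development, had 239 and 232 normalized reads in the deletion libraries, against 1865 and 1895 in the parental libraries, and fell 7.99-fold in the authors' deposited table (q = 1.58e-260). AN10166, the ortholog of gprG of Aspergillus fumigatus, fell 3.96-fold and the putative receptor AN9199 fell 3.49-fold. In the other direction, the putative receptor AN8348 had 2773 and 2797 normalized reads in the deletion libraries, against 477 and 411 in the parental libraries, a 6.27-fold rise in the authors' deposited table (q listed as 0). gprM rose 2.96-fold. AN4932 was called higher by 1.28-fold, but not in edgeR with library totals (log2 change 0.14, adjusted p = 0.137), and its CPM values overlapped between the strains. The predicted pheromone receptors AN2520 and AN7743 were not called in the authors' deposited table (q = 0.0654 and q = 0.224), nor in DESeq2 (adjusted p = 0.117 and 0.292). edgeR with TMM scaling called both lower (adjusted p = 0.00739 and 0.0438), but with 1 library left out its adjusted p ran from 0.00119 to 0.0923 for AN2520 and from 0.0818 to 0.163 for AN7743.

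The other RGS genes moved far less than rgsA. flbA, whose product turns off FadA signaling, had 2144 and 2181 normalized reads in the deletion libraries against 2461 and 2397 in the parental libraries, and was called lower by 1.12-fold in the authors' deposited table (q = 0.003). rgsB was called higher by 1.14-fold (q = 0.0004), a direction that turned under library totals, and rgsC was not called (q = 0.543). Among 3 partners of the subunits, AN3090, a putative alpha subunit, rose 1.44-fold in the authors' deposited table (q = 4.43e-21). AN4163, a WD repeat protein in cross-pathway control of amino acid synthesis, rose 3.50-fold. AN1661, a predicted exchange factor for G proteins, had means of 903 normalized reads in the deletion strain and 899 in the parental strain (q = 0.986).

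Of 4 cAMP and PKA genes, 3 were called higher and 1 lower. The PKA regulatory subunit gene AN4987, whose product holds the catalytic subunit inactive until cAMP binds, was listed 1.34-fold higher in the authors' deposited table (q = 1.00e-18). The other catalytic subunit gene, AN4717, was called higher by 1.09-fold there (q = 0.0331), but not called in DESeq2 (adjusted p = 0.0574). Under library totals its direction turned, and edgeR called it lower (log2 change -0.088, adjusted p = 0.0351). The adenylate cyclase-associated gene AN0999 rose 1.47-fold. Adenylate cyclase itself, AN3913, which makes cAMP, was called lower by 1.16-fold (q = 0.0003). Per library, the pkaA to AN4987 ratio of reads was 0.523 and 0.519 in the deletion libraries against 0.567 and 0.576 in the parental libraries. The pkaA to AN4717 ratio went the other way, with 0.993 and 0.978 in the deletion libraries against 0.871 and 0.896 in the parental libraries. Neither ratio was divided by length, and neither pair was among the 6 planned pairs.

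Of 4 developmental targets, 2 were called higher and 1 lower. fluG, which acts upstream of sporulation, rose 5.66-fold and the Ras gene rasA 1.26-fold, while the sporulation regulator brlA fell 2.38-fold, from few reads, in the authors' deposited table. brlA had 34.5 and 24.6 normalized reads in the deletion libraries against 81.8 and 59.0 in the parental libraries. aflR, the activator of the sterigmatocystin cluster, was not called (q = 0.0616), with 1 and 1 reads in the deletion libraries against 8 and 9 in the parental libraries.

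**Figure D5:**
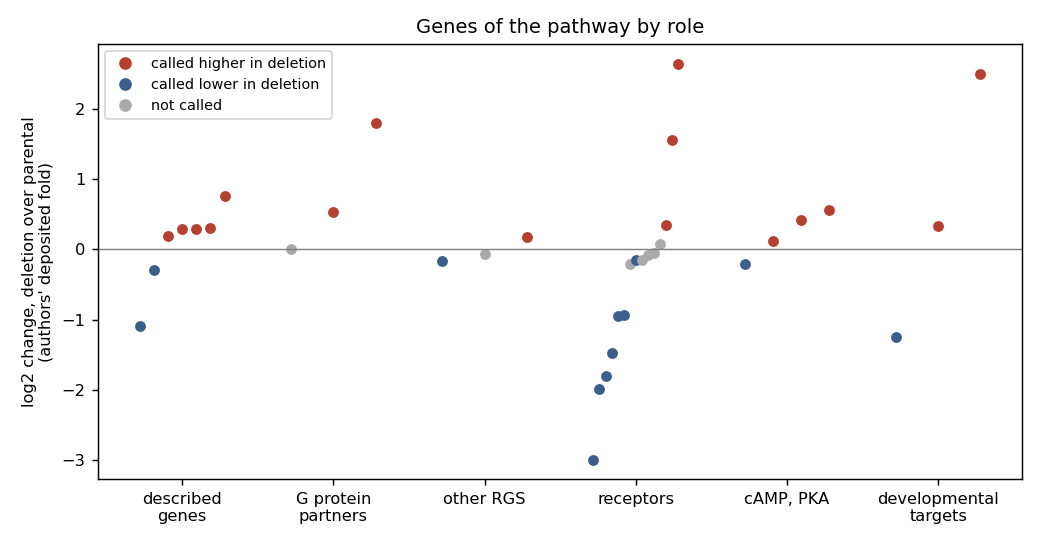
Log2 change (deletion over parental strain, from the authors' deposited fold) of the 7 genes described and of the other genes of the pathway by role, coloured by call at a q-value of 0.05. Receptors spread from -3.00 to 2.65, and the 7 genes from -1.09 to 0.76. aflR, with few reads, is left out.

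The genes whose pattern over the 4 libraries lay nearest to that of rgsA, by Euclidean distance of centred log2 values among 7813 genes, were AN9450, AN1767 and AN0339. AN9450, a predicted glycosylphosphatidylinositol-anchored protein, lay at a distance of 0.0161, AN1767 at 0.0181 and AN0339 at 0.0192. Their levels were 2.14-fold, 2.13-fold and 2.10-fold lower in the deletion strain. Folds close to that of rgsA follow from this choice of genes, and shared control with rgsA was not tested.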

How the data were processed

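RNA libraries (TruSeq version 2) were processed with Bowtie2, HTSeq and DESeq, per the submitters' processing notes. Tool versions, genome build and counting settings are not stated in the sources used. The authors deposited signal values, each the average over a strain's 2 libraries of reads divided by a size factor. Their deposited fold ratio is parental over deletion and was turned here. The deposited p-values and q-values, per the file headers the authors' own, are the main test, called at a q-value under 0.05. A further 2 value columns, of no sample in this series, were left out.

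Since a strain's average appears in both its own table and the shared one, under different size factors, whole reads of both libraries were solved for in 100% of 10930 genes (tolerance 0.25 reads, largest deviation 0.155 reads). Recovered libraries carry no replicate number. They entered edgeR 4.0.16 (quasi-likelihood, TMM, filterByExpr, Benjamini-Hochberg), which called 8075 of 9338 genes, DESeq2 1.42.0 and limma 3.58.1 (prior count 2) in R 4.3.3, after tests on simulated data. The SE is the log2 change divided by the square root of F. Levels per kb use the span of start and stop positions.

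The genes and lists were chosen with earlier results of these data known. Named genes were the 7, up to 3 called genes with the largest change in each direction per list, mpkA, and the 3 genes nearest to the most changed gene among those with at least 100 normalized reads (0.5 added before log2). AN12206 was dropped from the receptors, since its text names a transporter, and AN1296 from the cAMP list, since its text names RNA ligase activity.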

Additional observations from a re-analysis of the deposited data

How the results depend on the processing

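No paired analysis was possible because the recovered libraries carry no replicate number. Of the 7 genes, edgeR with library totals called 3 higher in place of 5. With a coefficient of variation of 0.2, edgeR called 1 higher and 1 lower, and over all genes 1601 higher and 2494 lower, against 3966 and 4109 in edgeR with TMM scaling and 3810 and 3775 in the authors' deposited table. For the other genes of the pathway that setting called 4 higher, against 11 with TMM scaling and 11 in the authors' deposited table. edgeR with library totals called 18 of them lower, against 12 with TMM scaling and 10 in the authors' deposited table, while over all genes it called 4997 of 9338 lower, against 4109 with TMM scaling. Library totals turned the log2 change of fadA to -0.027, rgsB to -0.031 and AN4717 to -0.088. They also turned the receptor gene AN5151 to -0.14 and the phosphodiesterase gene pdeB to -0.11. AN1661 stood at 0.0055 in the authors' deposited table and already at -0.012 with TMM scaling. With library totals it moved to -0.21 and was called lower (edgeR adjusted p = 0.00103). The median of all genes in edgeR was -0.02 with TMM scaling and -0.21 with library totals. The gpgA to sfaD difference ran from -0.064 to 0.072 when 1 library was left out. With AN1090 in place of AN1016, chosen after seeing the data, the ratio to fadA differed by -0.48 in place of -0.64 and the ratio of rgsA to it by -0.79 in place of -0.63. The cause of these moves was not tested. rgsA and phnA kept their direction and call in all 11 alternative fits, of which 4 leave a strain with 1 library and take the spread from the other strain alone. With 2 libraries a strain, the spread between cultures is poorly known.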

Other observations

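A further 5 genes of the pathway were picked from the annotation text after the data had been seen. The low-affinity cAMP phosphodiesterase gene pdeA, whose product breaks down cAMP, had 228 and 252 normalized reads in the deletion libraries, against 603 and 602 in the parental libraries, and fell 2.51-fold in the authors' deposited table (q = 1.57e-30). The high-affinity enzyme gene pdeB had means of 2358 normalized reads in the deletion strain and 2194 in the parental strain and was not called (q = 0.0786). AN4238, a kinase of cAMP-dependent signaling during spore germination, was 1.20-fold lower (q = 3.61e-10). Besides phnA, the files name 2 more phosducin-like genes, and both rose, AN4561 by 1.44-fold (q = 4.41e-26) and AN8847 by 1.41-fold (q = 9.22e-17) in the authors' deposited table. With these 5 genes and AN1016 added, 13 of 35 other genes of the pathway were called higher and 13 lower. Over all genes tested, 36.3% were called higher and 35.9% lower.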
